A study of Mus musculus with 10 samples.

Results

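The 10 genes described here encode proteins known to build, coat and break down lipid droplets or to regulate these steps. Only their RNA was measured here, in mouse embryonic stem cells. They were chosen by symbol: the droplet coat genes Plin2 and Plin3, the lipase genes Pnpla2, Lipe and Mgll, the lipase activator Abhd5, the lipase inhibitors G0s2 and Hilpda, and the triglyceride synthases Dgat1 and Dgat2. Each of the 10 had a row of its own in the deposited gene table, none of them merged with another gene, among 49624 gene names in all. All 10 were among the 16056 genes tested, and each had a normalised count of at least 10 in every library except Mgll, at 5.24 in KO replicate 2. In GENCODE vM21 (GRCm38, the build mm10) the coat genes lie at chr4:86648386-86670060 (Plin2, minus strand) and chr17:56277476-56292873 (Plin3, minus). The lipase genes and their activator lie at chr7:141455198-141460743 (Pnpla2, plus), chr9:122351608-122381524 (Abhd5, plus), chr7:25379527-25398710 (Lipe, minus) and chr6:88724412-88828360 (Mgll, plus). The synthases lie at chr15:76502015-76511953 (Dgat1, minus) and chr7:99153658-99182719 (Dgat2, minus), and the inhibitors at chr1:193272161-193273217 (G0s2, minus) and chr6:29272488-29275446 (Hilpda, plus).

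The 10 libraries were made from total RNA of cells kept in 2i/LIF, a medium with a MEK inhibitor, a GSK3 inhibitor and the cytokine LIF. The KO group (Mof-KO) and the WT group (wild type) both carry the alleles Mof fl/fl and the transgene Cre-ER TM on the strain background C57BL/6J, so the floxed gene and the inducible Cre are common to them. Their protocol names ethanol or 4-hydroxytamoxifen (100 nM) for 3 days, without saying which group had which. An effect of that drug or of active Cre cannot be told apart from that of Mof loss, since no group is labelled as having either with intact Mof. The second experiment used the line E14tg2a: the Released group had etomoxir for 4 days and then 4 days without it, the ETO group had etomoxir for 4 days, and the Control group had water for 4 days. Etomoxir inhibits the CPT1 enzymes that pass long-chain fatty acids into mitochondria. Its dose is not given in the sources used here. There were 2 libraries in each group, described as biological duplicates with no mention of separate cultures, so the p-values speak of the spread between libraries, which may be technical.

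As background, cells esterify surplus fatty acids to glycerol and keep the triglyceride in lipid droplets, organelles with a core of neutral lipid under a single layer of phospholipid. Perilipins coat the droplet and limit access of lipases. Lipolysis runs in steps, from triglyceride by ATGL (the product of Pnpla2, which ABHD5 activates), from diglyceride by hormone-sensitive lipase (Lipe), and from monoglyceride by MGLL. The fatty acids released are burnt in mitochondria after the CPT1 step or bind nuclear receptors of the PPAR family, which are known activators of several droplet genes.

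The libraries summed to 10562067 to 13326172 normalised counts, with a read number estimated at 9783249 to 16779174. The limit that a count of 0 allows, 3 reads, equalled 2.07 to 4.04 normalised counts, which covers counting error only. Kat8, the gene of MOF, had 222 and 205 normalised counts in KO cells, against 433 and 357 in WT cells (log2 change -0.88, SE 0.11, adjusted p = 3.64e-05). It had 566 and 530 normalised counts in ETO, against 372 and 383 in Control (log2 change 0.53, adjusted p = 0.000796). The end of Kat8 overlaps an exon of Prss8 on the other strand, and strand use in counting is not given. Prss8 had 931 and 1003 normalised counts in KO, against 524 and 432 in WT, and 432 and 556 in ETO, against 63.7 and 47.5 in Control, so reads of Prss8 could be among those of Kat8. The 8 embryonic stem cell markers were all detected in every group, with a summed level of 2349 to 2422 FPKM (fragments per kilobase of transcript, scaled to library size) in KO, 2526 to 2537 in WT, 2752 to 2787 in Released, 1505 to 1567 in ETO and 2731 to 2738 in Control. Of the 8 adipocyte markers, 6 were under 3 reads in all 10 libraries and the summed level was at most 0.729 FPKM. The 8 fibroblast and feeder markers summed to at most 6.36 FPKM. The 8 trophectoderm markers summed to 646 to 739 FPKM in ETO, against 37.8 to 40.2 in Control, and to 114 to 122 in Released. In KO they summed to 71.9 to 87.5 FPKM, against 62.8 to 67.8 in WT. Among them the keratin gene Krt18 had 2501 and 2618 normalised counts in ETO, against 29.7 and 44.6 in Control. Krt8, another keratin gene, had 2116 and 2334 in ETO, against 238 and 223 in Control. Of 7 tested markers 6 rose and 1 fell in ETO, and Cdx2 was at 0 in all KO and WT libraries. The sum therefore does not stand for each marker. The 8 primitive endoderm markers summed to 1656 to 1728 FPKM in KO against 1289 to 1336 in WT. They summed to 567 to 570 in Released, 853 to 857 in ETO and 489 to 513 in Control. Of these, Sparc had 18542 and 17999 normalised counts in KO, against 13997 and 13832 in WT. Gata4 had 56.5 and 45.8 in KO, against 84.2 and 86.4 in WT, so the sum does not stand for each marker.

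Compared per length, in deposited FPKM, the coat genes stood at the head of the group. Plin3, a perilipin found in the cytosol that moves onto nascent droplets, averaged 132 ± 3.68 FPKM in KO, 134 ± 8.69 in WT, 72.3 ± 1.57 in Released, 90.5 ± 0.969 in ETO and 60.2 ± 0.717 in Control (SD, n = 2, as for all such values). Plin2, the perilipin that resides on droplets in most cell types, averaged 112 ± 12.3 FPKM in KO, 93.5 ± 0.885 in WT, 36.7 ± 3.85 in Released, 329 ± 21.5 in ETO and 44.6 ± 1.69 in Control. Plin2 thus led the group in ETO, and Plin3 led it in the other 4 groups. At the low end, Dgat2 averaged 0.743 ± 0.0766 FPKM in KO, 0.688 ± 0.407 in WT, 1.22 ± 0.0768 in Released, 6.91 ± 1.22 in ETO and 0.852 ± 0.0634 in Control. Mgll averaged 0.252 ± 0.134 FPKM in KO and 2.82 ± 0.437 in ETO, its lowest and highest group means. Plin2 and Plin3 together made up 76.0% and 74.0% of the summed FPKM of the 10 genes in KO, against 76.2% and 78.1% in WT. They made up 56.1% and 55.5% in Released, 75.9% and 78.4% in ETO, and 58.4% and 59.9% in Control.

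Against water, 4 days of etomoxir went with higher RNA of both coat genes, of 1 synthase gene, and of Abhd5, Pnpla2 and Mgll among the lipases and their activator. Plin2 rose 6.87-fold and Dgat2 7.12-fold, Mgll and Abhd5 rose over 2-fold, and Plin3 and Pnpla2 rose by smaller amounts. Lipe, Dgat1, G0s2 and Hilpda were not called. Of the 10 genes, 6 rose and 0 fell, where 60.8% of all tested genes were called, 26.8% as rising and 34% as falling. The libraries of ETO lay above both of Control for 8 of the 10, below for 0 and overlapped for 2. Among all tested genes 81.6% did not overlap, 35.8% with ETO above and 45.8% with ETO below. The median log2 change of the 10 was 0.56, against -0.09 over all tested genes. In the same libraries 6 of 7 tested trophectoderm markers rose and 1 fell, 4 of 6 tested primitive endoderm markers rose and 0 fell (median log2 change 1.48), and 8 of 8 stem cell markers fell. Their part in the changes of the 10 genes was not tested. In bulk RNA, more cells of a type and more RNA per cell cannot be told apart.

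Among the coat genes, Plin2 had 3956 and 4117 normalised counts in the ETO libraries, against 582 and 591 in the Control libraries (log2 change 2.78, SE 0.07, adjusted p = 1.33e-13). Both ETO libraries were far above every other library of the series. Plin3 had 2749 and 2796 normalised counts in ETO, against 1807 and 1776 in Control (log2 change 0.63, SE 0.06, adjusted p = 2.33e-07). Its ETO libraries were above both Control libraries but below all 4 libraries of the Mof strain.

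Among the lipases and their activator, Abhd5, which encodes the coactivator CGI-58 of ATGL, had 744 and 792 normalised counts in ETO, against 340.1 and 316 in Control (log2 change 1.23, SE 0.13, adjusted p = 7.05e-07). Pnpla2, the gene of ATGL, had 385 and 384 normalised counts in ETO, against 278 and 268 in Control (log2 change 0.49, SE 0.12, adjusted p = 0.00274). The groups did not overlap for either gene, and the fitted change was larger for the activator. Mgll, the monoglyceride lipase, had 78.0 and 109 normalised counts in ETO, against 47.3 and 29.1 in Control (log2 change 1.29, SE 0.36, adjusted p = 0.00601). Its replicates spread widely, and the call was lost without Control replicate 2 (adjusted p = 0.0835) or ETO replicate 2 (adjusted p = 0.0757). Lipe, the hormone-sensitive lipase, had 165 and 144 normalised counts in ETO, against 159 and 142 in Control, and the groups overlapped (log2 change 0.04, adjusted p = 0.846, 95% interval -0.28 to 0.35).

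Of the synthases, Dgat2 was called and Dgat1 was not. Dgat2, one of the enzymes that add the last fatty acid to diglyceride, had 169 and 170.2 normalised counts in ETO, against 24.2 and 21.8 in Control (log2 change 2.83, SE 0.31, adjusted p = 1.37e-06). Dgat1, which catalyses the same reaction with an unrelated protein, had 333 and 267 normalised counts in ETO, against 295 and 277 in Control, and the groups overlapped (log2 change 0.06, adjusted p = 0.771, 95% interval -0.30 to 0.42). The level of Dgat2 relative to Dgat1 per length was 0.296 and 0.295 in ETO, against 0.0429 and 0.0384 in Control. Dgat1 thus remained the higher of both per length in each of these libraries.

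The ATGL inhibitors were not called. Hilpda, a droplet protein named for its induction by hypoxia, had 134 and 155 normalised counts in ETO, against 122 and 90.3 in Control (log2 change 0.46, SE 0.20, adjusted p = 0.0646). It was called with each other scaling of the libraries (adjusted p = 0.0137 to 0.0316) and in a fit of the E14tg2a libraries alone (adjusted p = 0.0202). G0s2, the G0/G1 switch gene, had 35.6 and 43.2 normalised counts in ETO, against 29.7 and 32.2 in Control (log2 change 0.33, SE 0.27, adjusted p = 0.302). Both ETO libraries were above both Control libraries for each inhibitor. The summed FPKM of G0s2 and Hilpda relative to that of Pnpla2 was 0.716 and 1.09 in ETO, against 1.20 and 0.746 in Control, and the groups overlapped.

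**Figure D1:**
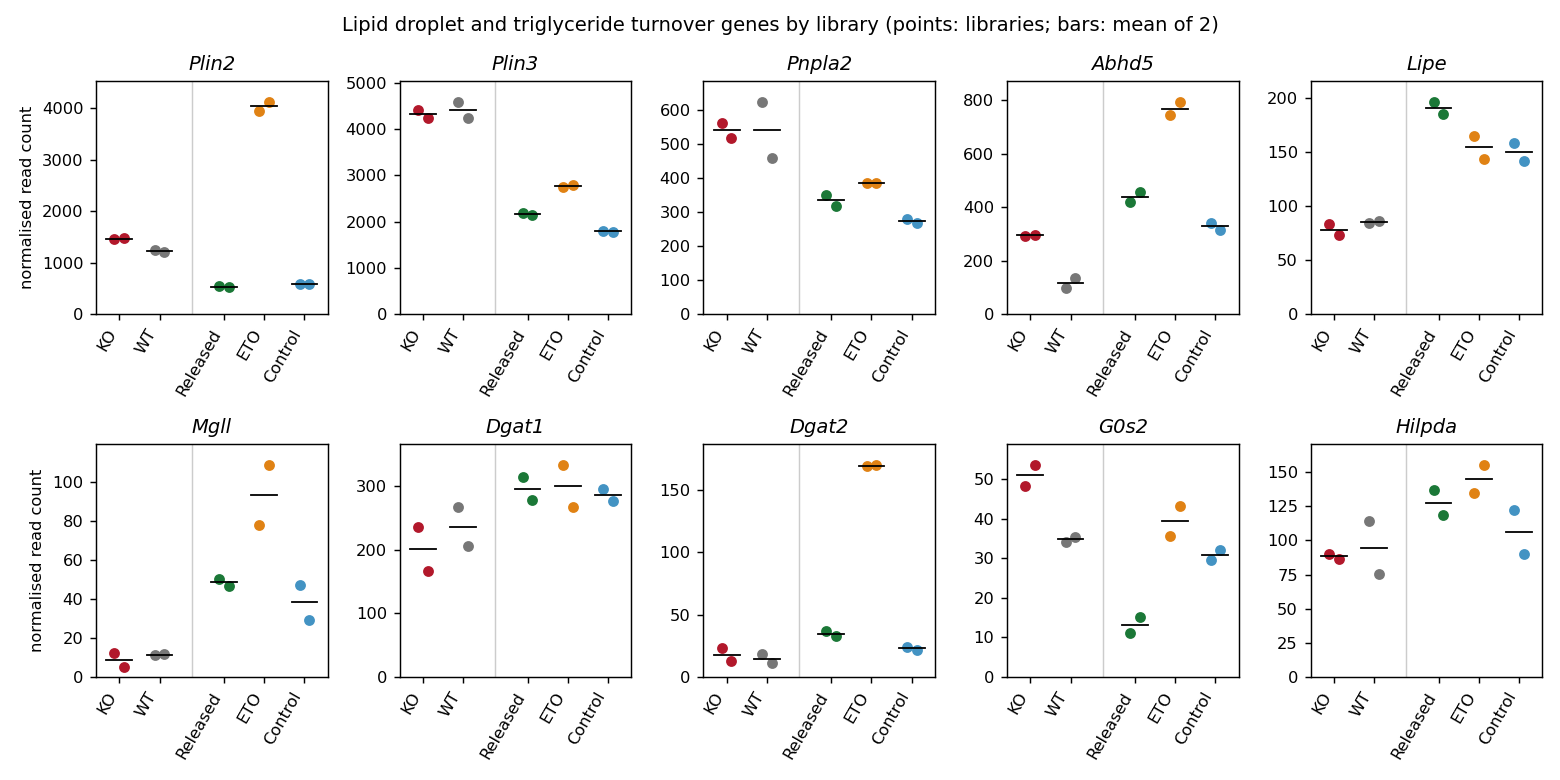
Normalised read counts (linear axes from 0) of the 10 genes in every library, with KO and WT of the Mof strain left of the line and Released, ETO and Control of E14tg2a right of it; points are libraries and bars the mean of 2. Plin2 and Dgat2 stand highest in the ETO libraries (3956 and 4117, and 169 and 170.2), and G0s2 is lowest in the Released libraries (11.02 and 15.23).

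After 4 days without etomoxir, Plin2, Plin3, Abhd5, Mgll and Dgat2, which rose in ETO, fell in Released, and G0s2 fell as well. Of the 10 genes, 6 fell and 0 rose in Released against ETO, where 57.7% of all tested genes were called, 33.1% as rising and 24.6% as falling. Released libraries lay above both ETO libraries for 1 of the 10, below for 7 and overlapped for 2. Among all tested genes 81% did not overlap, 45.7% with Released above and 35.2% with Released below. The median log2 change of the 10 was -0.58, against 0.10 over all tested genes. Released against ETO shares the ETO libraries with the comparison above, so its values are given beside those and are no independent result.

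Plin2 had 545 and 531 normalised counts in Released, against 3956 and 4117 in ETO (log2 change -2.91, SE 0.07, adjusted p = 8.64e-14). Plin3 had 2191 and 2147 normalised counts in Released, against 2749 and 2796 in ETO (log2 change -0.35, adjusted p = 0.000109). The resident droplet coat gene therefore differed 7.49-fold and its cytosolic relative 1.28-fold. Dgat2 had 36.5 and 32.8 normalised counts in Released, against 169 and 170.2 in ETO (log2 change -2.26, SE 0.31, adjusted p = 1.71e-05). Dgat1, at 314 and 278 in Released against 333 and 267 in ETO, overlapped between the groups (log2 change -0.02, adjusted p = 0.947).

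Abhd5 had 419 and 458 normalised counts in Released, against 744 and 792 in ETO (log2 change -0.81, SE 0.13, adjusted p = 6.24e-05). Mgll had 50.3 and 46.9 normalised counts in Released, against 78.0 and 109 in ETO (log2 change -0.91, adjusted p = 0.0419). The fall of Mgll was not called with FPKM values (adjusted p = 0.153), without the filter on low values (0.0579), with a plain variance model (0.0841), or without any of the 4 libraries compared (0.0559 to 0.256). Pnpla2, at 351 and 318 in Released against 385 and 384 in ETO, was not called (log2 change -0.20, adjusted p = 0.173), except with total signal as the factor (log2 change -0.35, adjusted p = 0.0318). Lipe was the member whose Released libraries lay above both ETO libraries, at 196 and 185 against 165 and 144 (log2 change 0.31, adjusted p = 0.0903). It was called in a fit of the E14tg2a libraries alone (adjusted p = 0.0460) and with a plain variance model (0.0454).

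G0s2, the inhibitor of ATGL, had 11.02 and 15.23 normalised counts in Released, against 35.6 and 43.2 in ETO (log2 change -1.53, SE 0.27, adjusted p = 0.000171). These were the lowest levels of G0s2 in the series, and they were above the limit of 3 reads in both libraries. Hilpda, at 137 and 118 in Released against 134 and 155 in ETO, overlapped between the groups (log2 change -0.18, adjusted p = 0.470).

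Against water, 3 of the 10 genes were called in the Released cells. By their labels these cells had 4 days of etomoxir and 4 days without it, against 4 days of water in Control. Time and exposure cannot be told apart here. Of the 10, Plin3 and Abhd5 rose and G0s2 fell, where 12.5% of all tested genes were called, 7.03% as rising and 5.51% as falling. G0s2 had 11.02 and 15.23 normalised counts in Released, against 29.7 and 32.2 in Control (log2 change -1.19, SE 0.27, adjusted p = 0.00893). This call was lost without Released replicate 1 (adjusted p = 0.0969) or Control replicate 2 (adjusted p = 0.0682). Abhd5 had 419 and 458 normalised counts in Released, against 340.1 and 316 in Control (log2 change 0.42, adjusted p = 0.0441). Plin3 had 2191 and 2147 normalised counts in Released, against 1807 and 1776 in Control (log2 change 0.28, adjusted p = 0.00686). The calls of Abhd5 and Plin3 were lost in the FPKM values (adjusted p = 0.382 for Abhd5 and 0.103 for Plin3) and with a plain variance model, and that of Abhd5 also without the filter on low values (0.0634). The call of Plin3 was lost without any 1 library of Released or Control (adjusted p = 0.0525 to 0.0813), and that of Abhd5 without any 1 library of KO, Released, ETO or Control (0.0519 to 0.267).

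Plin2 stood at 545 and 531 normalised counts in Released, against 582 and 591 in Control, with no overlap and no call (log2 change -0.12, adjusted p = 0.233, 95% interval -0.26 to 0.01). Dgat2 stood at 36.5 and 32.8 normalised counts in Released, against 24.2 and 21.8 in Control (log2 change 0.57, adjusted p = 0.261). Lipe had its highest levels in Released, at 196 and 185 normalised counts against 159 and 142 in Control (log2 change 0.34, adjusted p = 0.148). Pnpla2, at 351 and 318 in Released against 278 and 268 in Control, was not called (log2 change 0.29, adjusted p = 0.142). It was called in a fit of the E14tg2a libraries alone (adjusted p = 0.0310) and with a replicate block (0.0418). Released libraries were above both Control libraries for 5 genes, below both for 2 and overlapped for 3, where 61.7% of all tested genes did not overlap, 31.5% with Released above and 30.2% with Released below.

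**Figure D2:**
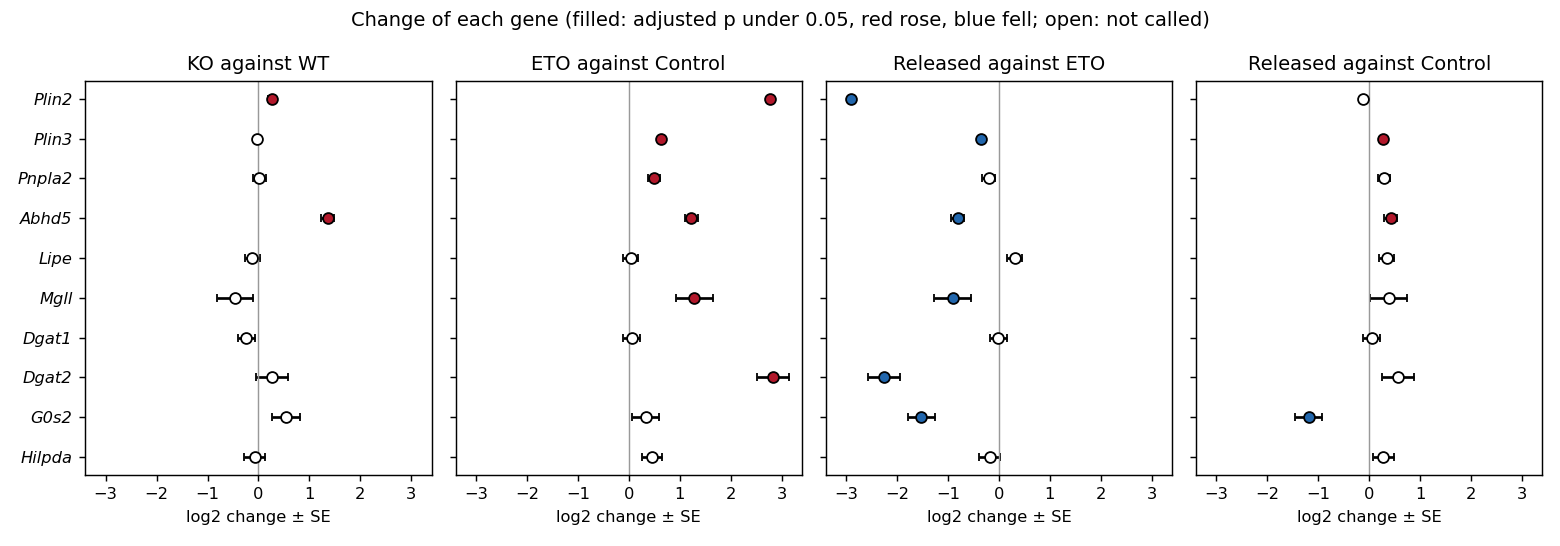
Fitted log2 change (horizontal axis, with its standard error) of each of the 10 genes in the 4 comparisons; red points rose and blue points fell at an adjusted p under 0.05, and open points were not called. In ETO against Control 6 genes rose, in Released against ETO 6 fell, and in KO against WT 2 rose.

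In the Mof strain fewer members were called: Abhd5 rose 2.56-fold and Plin2 1.20-fold in KO cells, and the other members were not called. That is 2 of the 10 rising and 0 falling, where 37.9% of all tested genes were called, 24.6% as rising and 13.3% as falling. KO libraries lay above both WT libraries for 3 of the 10, below for 1 and overlapped for 6. Among all tested genes 64.6% did not overlap, 39% with KO above and 25.6% with KO below. The median log2 change of the 10 was -0.01, against 0.08 over all tested genes. Of 6 tested primitive endoderm markers, 2 rose in KO (Sparc and Dab2) and 1 fell (Gata4, log2 change -0.73, adjusted p = 0.0147). Of 7 tested trophectoderm markers, 2 rose and 0 fell, with a median log2 change of 0.04. Their part in the values of the 10 genes was not tested.

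Abhd5 had 293 and 296 normalised counts in KO, against 98.1 and 134 in WT (log2 change 1.36, SE 0.13, adjusted p = 2.64e-06). The WT libraries were the lowest of the series for this gene, and KO stood below Control (340.1 and 316). The call held under each alternative run. The antisense gene A730085K08Rik, which shares exonic bases with Abhd5, was at 0 to 2.29 normalised counts over the series, under the limit of 3 reads in each library. Plin2 had 1453 and 1474 normalised counts in KO, against 1241 and 1199.7 in WT (log2 change 0.26, SE 0.07, adjusted p = 0.00527). This call was lost with total signal as the factor (log2 change 0.10, adjusted p = 0.283), in the FPKM values (adjusted p = 0.137) and in a fit of the Mof strain alone (adjusted p = 0.05003).

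The other lipase genes were not called in KO. Pnpla2 had 562 and 518 normalised counts in KO, against 622 and 458 in WT (log2 change 0.02, adjusted p = 0.939, 95% interval -0.25 to 0.28). Lipe had 83.4 and 73.3 normalised counts in KO, against 84.0 and 86.4 in WT (log2 change -0.12, adjusted p = 0.555), without overlap in counts but with KO above WT in FPKM. Mgll, at 12.1 and 5.24 in KO against 11.1 and 11.8 in WT, was close to the detection limit. The antisense genes that overlap exons of Lipe and Mgll were weak, at 9.34 to 20.2 normalised counts for 4732471J01Rik and 0 to 6.04 for Gm26588, the KO libraries having 1.35 and 2.62 of the last.

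G0s2 had 48.4 and 53.7 normalised counts in KO, against 34.2 and 35.3 in WT, with no overlap (log2 change 0.54, SE 0.27, adjusted p = 0.131). It was called with a plain variance model (adjusted p = 0.0459). Hilpda, at 90.1 and 86.4 in KO against 114 and 75.6 in WT, overlapped between the groups. The ratio of the FPKM of both inhibitors to that of Pnpla2 was 0.479 and 0.453 in KO, against 0.504 and 0.417 in WT.

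Plin3 had 4409 and 4229 normalised counts in KO, against 4578 and 4234 in WT (log2 change -0.03, adjusted p = 0.747, 95% interval -0.15 to 0.10). With total signal as the factor it was called as lower in KO (log2 change -0.19, adjusted p = 0.0233). Dgat1 had 235 and 166 normalised counts in KO, against 267 and 205 in WT (log2 change -0.24, adjusted p = 0.284). Dgat2 had 22.9 and 13.1 normalised counts in KO, against 18.5 and 10.8 in WT (log2 change 0.27, adjusted p = 0.530, 95% interval -0.40 to 0.94). Groups of both synthases overlapped.

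The changes of the experiments were compared directly, as the KO change minus the ETO change, with the reservation that line and exposure differ between them. The difference was called for 5 of the 10 genes, all with the larger change in ETO, where 54.5% of all tested genes were called, 32.3% with a positive and 22.2% with a negative difference. It was -2.52 for Plin2 (SE 0.09, adjusted p = 9.99e-11), -2.56 for Dgat2 (SE 0.44, adjusted p = 0.000175) and -0.66 for Plin3 (SE 0.08, adjusted p = 9.49e-06). It was -1.75 for Mgll (SE 0.51, adjusted p = 0.0092) and -0.48 for Pnpla2 (SE 0.17, adjusted p = 0.0307). Abhd5 and Plin2 were the members called as rising in both experiments, though the KO call of Plin2 was lost under some settings. The changes of Abhd5, 1.36 in KO and 1.23 in ETO, differed by 0.13 (adjusted p = 0.567, 95% interval -0.26 to 0.52). That difference took either sign under other scalings, from -0.22 to 0.13. The call for Pnpla2 was lost in the FPKM values (adjusted p = 0.284) and with a plain variance model (adjusted p = 0.0939) and without WT replicate 1, KO replicate 2 or any library of ETO or Control (0.0608 to 0.154). That for Mgll was lost without Control replicate 2 (adjusted p = 0.0528) or ETO replicate 2 (adjusted p = 0.0541).

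**Figure D3:**
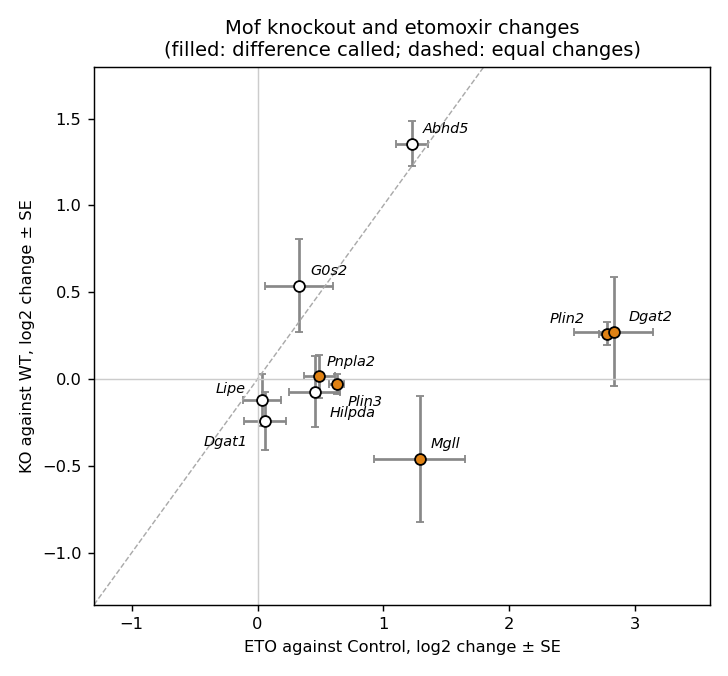
Log2 change with its standard error in KO against WT (vertical axis) and in ETO against Control (horizontal axis) for the 10 genes, where points on the dashed line have equal changes and filled points have a called difference. Abhd5 lies near the line (1.36 and 1.23), and Plin2 (0.26 and 2.78) and Dgat2 (0.27 and 2.83) lie far to its right.

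Across the 5 groups the genes took different orders. Plin2 ran from ETO through KO, WT and Control to Released, and Abhd5 from ETO through Released, Control and KO to WT, with no overlap between neighbours for either. Plin3 and Pnpla2 were highest in WT and KO, which overlapped, followed by ETO, Released and Control, which did not overlap. Lipe was highest in Released, with ETO and Control overlapping below it and both groups of the Mof strain lowest. Dgat2 ran from ETO through Released to Control, without overlap, then KO, which overlapped with Control, and WT, which overlapped with KO but not with Control. Mgll was highest in ETO, with Released and Control overlapping, and lowest in KO and WT, which overlapped. G0s2 ran from KO through ETO, WT and Control to Released, with no overlap between neighbours. Dgat1 overlapped among ETO, Released and Control, and again between WT and KO, which were lower. Hilpda overlapped between neighbours throughout. Strain and experiment cannot be told apart in any difference between the Mof strain and E14tg2a.

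Ratios within a library do not depend on its scaling factor. They use FPKM, whose replicate spread can differ from that of the counts. Pnpla2 in ETO had 385 and 384 normalised counts but 23.4 and 18.3 FPKM. Plin2 relative to Plin3 per length was 0.893 and 0.795 in KO, against 0.673 and 0.728 in WT. It was 0.537 and 0.478 in Released, 3.50 and 3.78 in ETO, and 0.715 and 0.767 in Control. ETO was thus the group in which the resident coat gene exceeded the cytosolic one. Dgat2 relative to Dgat1 was 0.0431 and 0.0658 in KO, against 0.0490 and 0.0244 in WT, and 0.0622 and 0.0487 in Released, and the groups of the Mof strain overlapped.

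**Figure D4:**
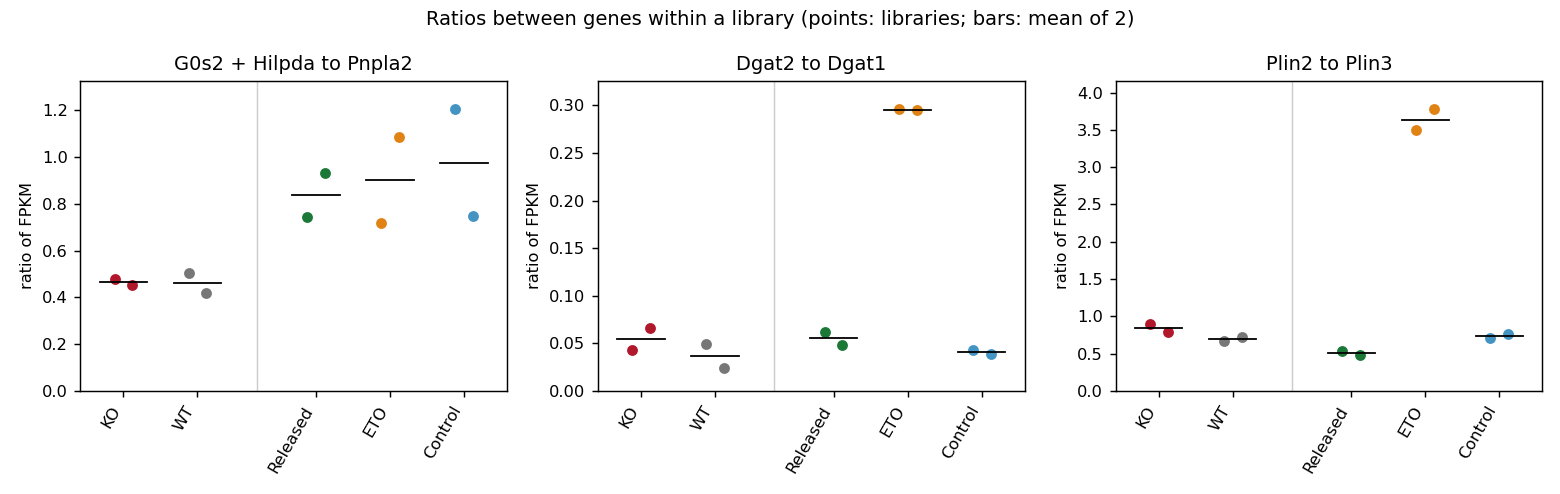
Ratios of deposited FPKM between genes within each library (vertical axes, linear from 0), with KO and WT of the Mof strain left of the line and Released, ETO and Control right of it; points are libraries and bars the mean of 2. Plin2 to Plin3 (3.50 and 3.78) and Dgat2 to Dgat1 (0.296 and 0.295) are highest in ETO, and the ratio of both inhibitors to Pnpla2 overlaps between ETO and Control.

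The start regions of the genes were searched for short motifs, since several of the genes moved together in etomoxir. RefSeq windows (GRCm38.p6, 250 bases before to 50 after a start) were at hand for 8 of the 10 genes, all but Dgat1 and Dgat2. The E-box CACGTG, a palindrome bound by factors such as MYC with MAX and the TFEB family, occurred in windows of Plin2, Mgll and Lipe, that is 3 of 8 genes. Some genes have more than 1 window, and by window it occurred in 3 of the 11 of these genes and in 7.15% of the 32851 searched. It contains ACGTG, the only form of the core of the hypoxia response element that was searched. That form occurred on either strand in windows of 4 of the 8 genes, Hilpda being the further one. By window it occurred in 5 of their 11 and in 19.6% of all windows. The stretches are shown because they place the match relative to the start, with the motif in capitals, 5′ to 3′ on the strand of the gene. The match spans from 4 bases before the start to base 2 of the transcript in Plin2, at chr4:86670046-86670075, minus strand. In Mgll it begins 44 bases before a start, at chr6:88724356-88724385, plus strand. In Lipe it begins 155 bases before a start, at chr7:25396125-25396154, minus strand, and in Hilpda the core begins 43 bases before a start, at chr6:29272571-29272600, plus strand.
Plin2: cagctgggctatCACGTGgctcggaggctt
Mgll: gggggccgggcaCACGTGgggccccggcgc
Lipe: aacagggacgacCACGTGagggggcggagg
Hilpda: gatggccagcggACGTGccccagggcgagc

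The 3 genes with the E-box did not share a change: Plin2 and Mgll were called in ETO and Lipe was not. The ATF4 and CHOP element TGATGNAA and the antioxidant element TGACNNNGC, searched on both strands, had no match in the windows of the 8 genes, and occurred in 3.97% and 12.4% of all windows. The FoxO element GTAAACA occurred in 2 of the 11 windows, of Lipe and Mgll, and in 3.65% of all windows, and CCAAT in 2 of the 11, of Plin2 and Plin3, and in 37.4% of all windows. The stretch before any annotated transcript of Abhd5 held none of these motifs in the letters searched. Abhd5 and Plin2 both rose in both experiments, and the window of Plin2 held the E-box, the hypoxia core and CCAAT. Other forms of the motifs were not searched. The stretch of Abhd5 is shown because it held no match, in lower case throughout, from chr9:122351366-122351607, plus strand.
Abhd5: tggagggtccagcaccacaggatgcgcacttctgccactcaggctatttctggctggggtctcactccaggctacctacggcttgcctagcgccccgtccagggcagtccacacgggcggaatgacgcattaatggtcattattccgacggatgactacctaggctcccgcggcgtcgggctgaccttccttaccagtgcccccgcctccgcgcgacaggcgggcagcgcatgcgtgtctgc

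Genes with a like pattern over the 10 libraries were ranked by Pearson's r of log2 values, as a description in which points of a group and of a line are not independent. For Plin2 the closest were Hrk (r = 0.992), a proapoptotic BH3-only gene, Dusp16 (0.991), a MAP kinase phosphatase, and Rnh1 (0.991), a ribonuclease inhibitor. For Dgat2 they were Prdm11 (0.993), Cpne8 (0.992) and Elovl1 (0.990), a fatty acid elongase. For Abhd5 they were Tanc2 (0.991), Cyp1b1 (0.989) and Crhr2 (0.986). Plin3 (0.996) and Pnpla2 (0.983) shared Slco4a1 among their closest genes, which like them was higher in the Mof strain than in E14tg2a. For G0s2 the closest were Sesn3 (0.979), Capn1 (0.965) and Osbpl1a (0.956).

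Other genes of the pathway were taken from lists, whose counts are to be read against all tested genes: 60.8% were called in ETO (26.8% rising, 34% falling), 57.7% in Released against ETO and 37.9% in KO. Among 16 tested genes of glycerolipid synthesis, 9 rose and 2 fell in ETO, with a median log2 change of 0.43 against -0.09 over all tested genes. Lpin1, a phosphatidate phosphatase that makes diglyceride, had 3132 and 3437 normalised counts in ETO, against 1092 and 938 in Control (log2 change 1.70, adjusted p = 9.51e-11). The merged row of Gm42987 and Gpat3, a glycerol-3-phosphate acyltransferase, had 303 and 319 normalised counts in ETO, against 26.4 and 27.0 in Control (log2 change 3.49, adjusted p = 1.12e-10). Gk, the glycerol kinase, fell (log2 change -1.20, adjusted p = 2.14e-07). In Released against ETO 4 of the 16 rose and 8 fell, including Lpin1 (log2 change -1.37) and Agpat4 (log2 change -1.22). In KO 4 rose and 6 fell, with falls of Gpam (log2 change -0.79, adjusted p = 2.14e-05), the mitochondrial acyltransferase, and Lpin3 (log2 change -1.07, adjusted p = 4.95e-05).

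Of 13 tested genes of droplet coat and assembly outside the 10, 6 rose and 2 fell in ETO. In either direction 8 of 13 were called, near the 60.8% of all tested genes, of which 26.8% rose and 34% fell. The median log2 change of the 13 was 0.32, against -0.09 over all tested genes. Fitm2, which helps triglyceride bud into droplets at the endoplasmic reticulum, had 304 and 289.8 normalised counts in ETO, against 166 and 161 in Control (log2 change 0.86, adjusted p = 6.27e-05). Hsd17b11, a dehydrogenase found on droplets, fell (log2 change -0.68, adjusted p = 1.04e-05). In Released against ETO 3 of the 13 rose and 8 fell, where 33.1% of all tested genes rose and 24.6% fell. In KO 2 rose and 4 fell, where 37.9% of all tested genes were called, 24.6% as rising and 13.3% as falling. The KO calls included the row that merges the seipin gene Bscl2 with Hnrnpul2 (log2 change 0.35) and Tmem159, a seipin partner (log2 change -1.15, adjusted p = 0.00229).

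Of 13 tested genes of other neutral lipid and lysophospholipid hydrolases, 6 rose and 2 fell in ETO. In either direction this was again 8 of 13, near the 60.8% of all tested genes, of which 26.8% rose and 34% fell. The median log2 change of the 13 was 0.52, against -0.09 over all tested genes. Nceh1, a neutral cholesterol ester hydrolase, rose (log2 change 1.34, adjusted p = 1.29e-08), as did the lipoprotein lipase Lpl (0.93) and the endothelial lipase Lipg (2.16) on the same scale. In Released against ETO 3 of the 13 rose and 7 fell, where 33.1% of all tested genes rose and 24.6% fell. Pnpla3, a relative of Pnpla2, had 368 and 408 normalised counts in Released, against 149 and 163 in ETO (log2 change 1.31, adjusted p = 1.05e-07). In KO 1 rose and 3 fell, where 37.9% of all tested genes were called, and Lipa, the lysosomal acid lipase, had 12.1 and 19.6 normalised counts in KO, against 40.7 and 55.0 in WT (log2 change -1.56, adjusted p = 0.000129).

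Of 16 tested genes of fatty acid activation, binding and uptake, 8 rose and 4 fell in ETO. Vldlr, the receptor of very low density lipoprotein, had 481 and 442 normalised counts in ETO, against 52.8 and 66.4 in Control (log2 change 2.94, adjusted p = 2.42e-10). The merged row of Acot1 and Acot2, acyl-CoA thioesterases, had 565 and 573 normalised counts in ETO, against 34.1 and 41.5 in Control (log2 change 3.88, adjusted p = 4.03e-11). In KO 5 of the 16 rose and 3 fell, with rises of Vldlr (log2 change 1.22, adjusted p = 2.2e-05) and of the row of Acot1 and Acot2 (log2 change 1.31, adjusted p = 2.94e-05). Of 11 tested PPAR targets outside the 10, a list that shares Acot1 with the last, 7 rose and 3 fell in ETO, with a median log2 change of 0.75. Pdk4, a kinase that inhibits pyruvate dehydrogenase, rose (log2 change 1.92, adjusted p = 3.82e-10). In KO 3 of the 11 rose and 5 fell, and Pdk4 fell (log2 change -0.75, adjusted p = 4.96e-05).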

How the data were processed

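The single-end libraries were prepared by Illumina's TruSeq protocol, per the labels' protocols. TopHat2 2.1.1, SAMtools 1.5, deepTools and the build mm10 are named in the submitters' processing notes, and how the gene tables were made is not given in the sources used here. The deposited count table holds a signal: read counts that the authors divided by 1 factor per library. Of its values above 0, 79.8% to 85.0% lay within 0.1 of a whole read, so no count model was fitted. A second deposited table holds FPKM, by its header. Of 50273 rows, 1314 merge several genes. Rows of 1 name were summed, and 2 mitochondrial rows listed at 0 in Released replicate 1 alone were left out.

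Log2(value + 1), a scale that understates changes of low genes, was modelled in limma 3.58.1 (R 4.3.3) with 1 mean per group over all 10 libraries and trended, robust moderation. Genes entered with 10 or more in 2 or more libraries. P-values (both directions) were adjusted by Benjamini-Hochberg across the tested genes and called under 0.05. The model was also run on simulated reads with the same spread setting for every gene and few changed genes. There it recovered 71.8% to 77.1% of 2-fold and 97.9% to 100% of 4-fold changes. Spread and the share of changed genes differ in the real data, so this does not measure the error of the calls. A "plain variance model" has neither trend nor robust moderation. Alternatives were 3 other scalings, 2 pseudocounts (0.5 and 5), no filter and a filter at 50, FPKM (+ 0.1), a fit per experiment, the plain variance model, a replicate block and each library left out.

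Members and lists were chosen with earlier results of these data known. Named were all members, examples from up to 3 called genes of smallest adjusted p per list and comparison, and the 3 genes of highest r. Gene overlaps are from GENCODE vM21 (GRCm38). The motif search left out chromosome 18. Tables and figures used Python 3.11.15, numpy 2.4.6, pandas 2.3.3 and matplotlib 3.10.9.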

Additional observations from a re-analysis of the deposited data

Results flagged for a closer look

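The KO change and the ETO change differed by the direct test for 5 of the 10 genes, each time with the larger rise in ETO. Of all tested genes 54.5% were called for this difference, 32.3% with a positive and 22.2% with a negative difference. The 5 genes are thus near the share in either direction and above the share of negative calls, a split by sign that depends on the scaling. The difference, KO change minus ETO change on the log2 scale, was -2.52 for Plin2, -2.56 for Dgat2, -1.75 for Mgll, -0.66 for Plin3 and -0.48 for Pnpla2. The call for Mgll was lost without Control replicate 2 (adjusted p = 0.0528) or ETO replicate 2 (0.0541). That for Pnpla2 was lost without WT replicate 1, KO replicate 2 or any library of ETO or Control (0.0608 to 0.154). Line, exposure and experiment differ together between the 2 changes and cannot be told apart. Groups of 2 libraries were too small to look for a library far from its group.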

How the results depend on the processing

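Of the members' changes recomputed with one library left out, 448 kept direction and side of the threshold, 28 lost a call, 8 gained one and 16 changed sign. Many of these fits left out a library outside the comparison, where the change itself cannot move and only its error can. The 448 thus overstate how stable the changes are. Under the other settings the numbers were 499, 13, 14 and 9. The median change of all genes moved with total signal as the factor by -0.16 in KO, by 0.18 in ETO, by -0.14 in Released relative to ETO and by -0.35 for the difference, and with median-of-ratios factors by 0.10 (ETO) and -0.18 (difference). Of called genes, 64.8% rose in KO, against 52.5%, 52.9% and 37.3% with median-of-ratios, trimmed-mean and total-signal factors, and for the difference 59.3%, against 46.7%, 48.1% and 34.5%. With total signal the share was 58.7% in ETO (44.1% as reported), 45.0% in Released against ETO (57.4%) and 70.0% in Released against Control (56.1%). Pnpla2 in KO took -0.062, -0.0592 and -0.15 under the 3 scalings, and the Abhd5 difference -0.0522, -0.035 and -0.22. The G0s2 difference was -0.14 with total signal. In FPKM, Lipe was 0.19 and Hilpda 0.0211 in KO. Members called in KO were 1 with FPKM and 1 in the fit per experiment, and in Released against Control 1 with FPKM and 1 with the plain variance model. All genes called were 2959 in KO with FPKM, against 6086. In Released against Control they were 348 with FPKM, 3662 per experiment and 1171 with the plain model, against 2012. The cause was not tested. With one library left out, members called ranged from 2 to 4 in KO, 0 to 4 in Released against Control and 3 to 6 for the difference, and all genes called in Released against Control from 770 to 2864. In KO the ranges were -0.0844 to 0.0283 for Plin3, -0.20 to 0.24 for Pnpla2, -0.996 to 0.0756 for Mgll, -0.49 to 0.00963 for Dgat1, -0.11 to 0.65 for Dgat2 and -0.36 to 0.22 for Hilpda. In ETO they were -0.0594 to 0.13 for Lipe and -0.10 to 0.22 for Dgat1. Dgat1 ranged from -0.17 to 0.14 in Released against ETO and from -0.0419 to 0.13 in Released against Control, and the Abhd5 difference from -0.0897 to 0.35. Replicate numbers did not pair the libraries (r of deviations -0.015 to 0.0812), and with the replicate block 3110 genes were called in Released against Control, Hilpda was called in ETO (adjusted p = 0.0364) and Pnpla2 in Released against Control (0.0418), with no other member's call changed. Depth limits G0s2, Dgat2 and, in the Mof strain, Mgll most, since these have the fewest reads.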

Other observations

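Sterol esters are the other neutral lipid of droplets, and 8 of 8 genes on a list for them were tested. The list holds genes of sterol transport, such as Abca1 and Abcg1, beside genes of ester turnover, so its counts do not measure ester turnover alone. In ETO 4 rose and 3 fell, where 60.8% of all tested genes were called. Soat2, an enzyme that esterifies cholesterol, had 197 and 188 normalised counts in ETO, against 7.71 and 8.30 in Control (log2 change 4.43, adjusted p = 6.95e-10), and 11.7 and 7.03 in Released. Its relative Soat1 rose too (log2 change 1.14, adjusted p = 8.91e-08), and the exporter Abcg1 fell (log2 change -1.13, adjusted p = 2.77e-08). In KO 5 of the 8 rose and 0 fell, where 37.9% of all tested genes were called. Abca1, another sterol exporter, had 741 and 746 normalised counts in KO, against 226 and 219 in WT (log2 change 1.74, adjusted p = 6.03e-08), and Abcg1 rose as well (log2 change 0.49, adjusted p = 0.000503).

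Of 18 tested hypoxia-inducible genes, the class for which Hilpda is named, 7 rose and 7 fell in ETO. Of all tested genes 60.8% were called in ETO, 26.8% as rising and 34% as falling. The median log2 change of the 18 was -0.09, the same as over all tested genes to 2 decimals. Vegfa, the vascular growth factor, had 1728 and 1587 normalised counts in ETO, against 203 and 218 in Control (log2 change 2.97, adjusted p = 2.97e-13). Ldha, the lactate dehydrogenase, had 1031 and 1158 normalised counts in ETO, against 5676 and 5631 in Control (log2 change -2.37, adjusted p = 4.62e-13). In KO 6 rose and 4 fell, where 37.9% of all tested genes were called, 24.6% as rising and 13.3% as falling.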
